A study of Mus musculus with 5 samples.

Results

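The genes described here are 37 genes of cholesterol synthesis, cholesterol efflux and lipid storage, picked by symbol from the 24419 gene rows of the RNA-seq table, and all 37 had a row. They fall into 17 enzymes of sterol synthesis, 5 genes of the SREBP pathway that senses sterols, 7 genes of LXR signaling, efflux and sterol transport, 4 genes of fatty acid synthesis and 4 genes of lipid storage and uptake. The cells were bone marrow-derived macrophages (BMMs), grown from marrow of C57BL/6 mice with M-CSF at 50 ng/ml for 5 days, and both groups were then activated with LPS at 100 ng/ml. For a further 18 h, 2 samples received PBS and 3 samples received recombinant Sema3G at 100 ng/ml, and the comparison asks what Sema3G, a secreted semaphorin, changes in activated macrophages. The Sema3G protein carried an Fc tag and was purified from the medium of transfected cells, while the control was PBS. The labels do not say whether the samples of a group came from separate mice or cultures, so p-values measure the spread between these samples only.

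Cells make cholesterol from acetyl-CoA in a long chain of enzymes. The transcription factors SREBP1 and SREBP2 switch the genes of these enzymes on when the endoplasmic reticulum is short of sterol, with SCAP as their escort and the INSIG proteins as their brake. When sterol is plentiful, oxysterols activate the LXR receptors, which raise the transporters that export cholesterol. Macrophages are known for this balance because they take up lipoproteins and dying cells and store the surplus as cholesteryl esters in lipid droplets.

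Sequence just upstream of 4 members is shown because the results turn on these genes: Hmgcs1, an enzyme early in sterol synthesis, Ebp, a late one, Mylip, which lowers the uptake of lipoproteins, and Soat1, which makes cholesteryl esters. Each line holds 300 bases of the RefSeq promoter table for GRCm38.p6, from 250 bases before the RefSeq start of the gene to 50 bases after it, written 5′ to 3′ on the strand of the gene. Capitals mark the sterol response element TCACNCCAC, the letters to which SREBP binds in textbook promoters, and the CCAAT box, whose binding factor NF-Y works beside SREBP, each searched on both strands (ATTGG is CCAAT on the other strand). The windows are chr13:119690101-119690400 on the plus strand for Hmgcs1, chrX:8193463-8193762 on the minus strand for Ebp, chr13:45389492-45389791 on the plus strand for Mylip and chr1:156474279-156474578 on the minus strand for Soat1.
Hmgcs1: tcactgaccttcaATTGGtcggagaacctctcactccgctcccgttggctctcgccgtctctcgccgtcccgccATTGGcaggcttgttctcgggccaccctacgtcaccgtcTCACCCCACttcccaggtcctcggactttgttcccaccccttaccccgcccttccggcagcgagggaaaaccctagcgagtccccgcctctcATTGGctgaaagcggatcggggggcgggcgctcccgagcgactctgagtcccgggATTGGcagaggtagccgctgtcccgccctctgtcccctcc
Ebp: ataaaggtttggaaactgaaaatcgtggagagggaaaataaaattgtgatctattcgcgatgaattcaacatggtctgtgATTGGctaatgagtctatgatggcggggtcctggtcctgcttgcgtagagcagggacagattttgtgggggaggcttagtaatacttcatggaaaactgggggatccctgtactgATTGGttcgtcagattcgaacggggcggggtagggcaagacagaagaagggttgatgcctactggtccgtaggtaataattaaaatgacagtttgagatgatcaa
Mylip: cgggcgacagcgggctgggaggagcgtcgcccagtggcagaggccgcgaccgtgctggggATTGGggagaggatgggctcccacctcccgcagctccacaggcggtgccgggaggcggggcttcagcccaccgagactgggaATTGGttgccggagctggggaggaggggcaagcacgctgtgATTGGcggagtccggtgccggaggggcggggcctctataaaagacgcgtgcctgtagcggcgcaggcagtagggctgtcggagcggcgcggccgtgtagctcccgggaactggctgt
Soat1: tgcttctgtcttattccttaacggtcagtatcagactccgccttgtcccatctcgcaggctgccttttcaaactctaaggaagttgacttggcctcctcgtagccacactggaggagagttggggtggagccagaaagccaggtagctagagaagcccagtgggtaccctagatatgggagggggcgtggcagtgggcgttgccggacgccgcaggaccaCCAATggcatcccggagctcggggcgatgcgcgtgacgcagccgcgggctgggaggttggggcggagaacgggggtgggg

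Of the 29 members with a promoter in the table, 1 held the sterol response element, Hmgcs1, at positions -137 to -129 from its RefSeq start, and 1.44% of all 27025 genes of the table held it. The CCAAT box, which was added to the search after values had been seen, was found for 22 of the 29 members (75.9%) and for 41.1% of all genes. It was present in 13 of 14 sterol synthesis enzymes, 4 of 5 SREBP pathway genes, 3 of 3 storage and uptake genes, 1 of 5 LXR and efflux genes and 1 of 2 fatty acid genes. The LXR element, a direct repeat of AGGTCA with 4 bases between the copies, was in none of the 29 windows and in 0.0148% of all genes. Only exact letters were searched, so variants of an element were not counted. Sqle, Fdps, Fdft1, Abcg1, Stard4, Scd1, Scd2 and Lpl had no promoter in the table and were not searched. A match describes letters in a window of this length and is not a measured binding site. For Hmgcs1 the GENCODE M21 gene begins further downstream, at position 119690379.

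None of the tested members was called with Sema3G by the main test. A gene was tested where its mean over the 5 libraries was at least 1 CPM (the UMIs of a gene scaled to a common library total), which 35 of the 37 members reached, and it was called at an adjusted p (Benjamini-Hochberg) under 0.05 in limma, run on log2(CPM + 1). By this rule 0 of 35 members were called, against 1.8% of the 10088 tested genes (1.59% higher and 0.218% lower), and 4 members (Soat1, Mylip, Ebp and Plin2) had an unadjusted limma p below 0.05, against 21.1% of all tested genes. The quasi-likelihood test of edgeR on the recovered UMI counts called 1 member, Soat1, higher with Sema3G, beside 3.01% of all tested genes in either direction and 2.98% higher. DESeq2 called Soat1 too and no other member, beside 3.92% of the genes for which it gave an adjusted p, and it gave none for 13 of the 35 members. The median log2 fold change (below, log2 change) of the members was -0.27, beside -0.22 for all tested genes. Of the 35 members, 26 had a log2 fold change below 0, which is 74.3% beside 67.5% of all tested genes. The median of all genes was -0.023 with TMM scaling, so changes are also given relative to the median below. Taking CPM over the listed genes with Rn45s left out moved it to 0.042 and turned 8 members with small changes above 0 (Acat2, Pmvk, Mvd, Fdps, Fdft1, Srebf2, Abcg1 and Cd36). Relative to it, 16 members lay above and 19 below.

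**Figure D1:**
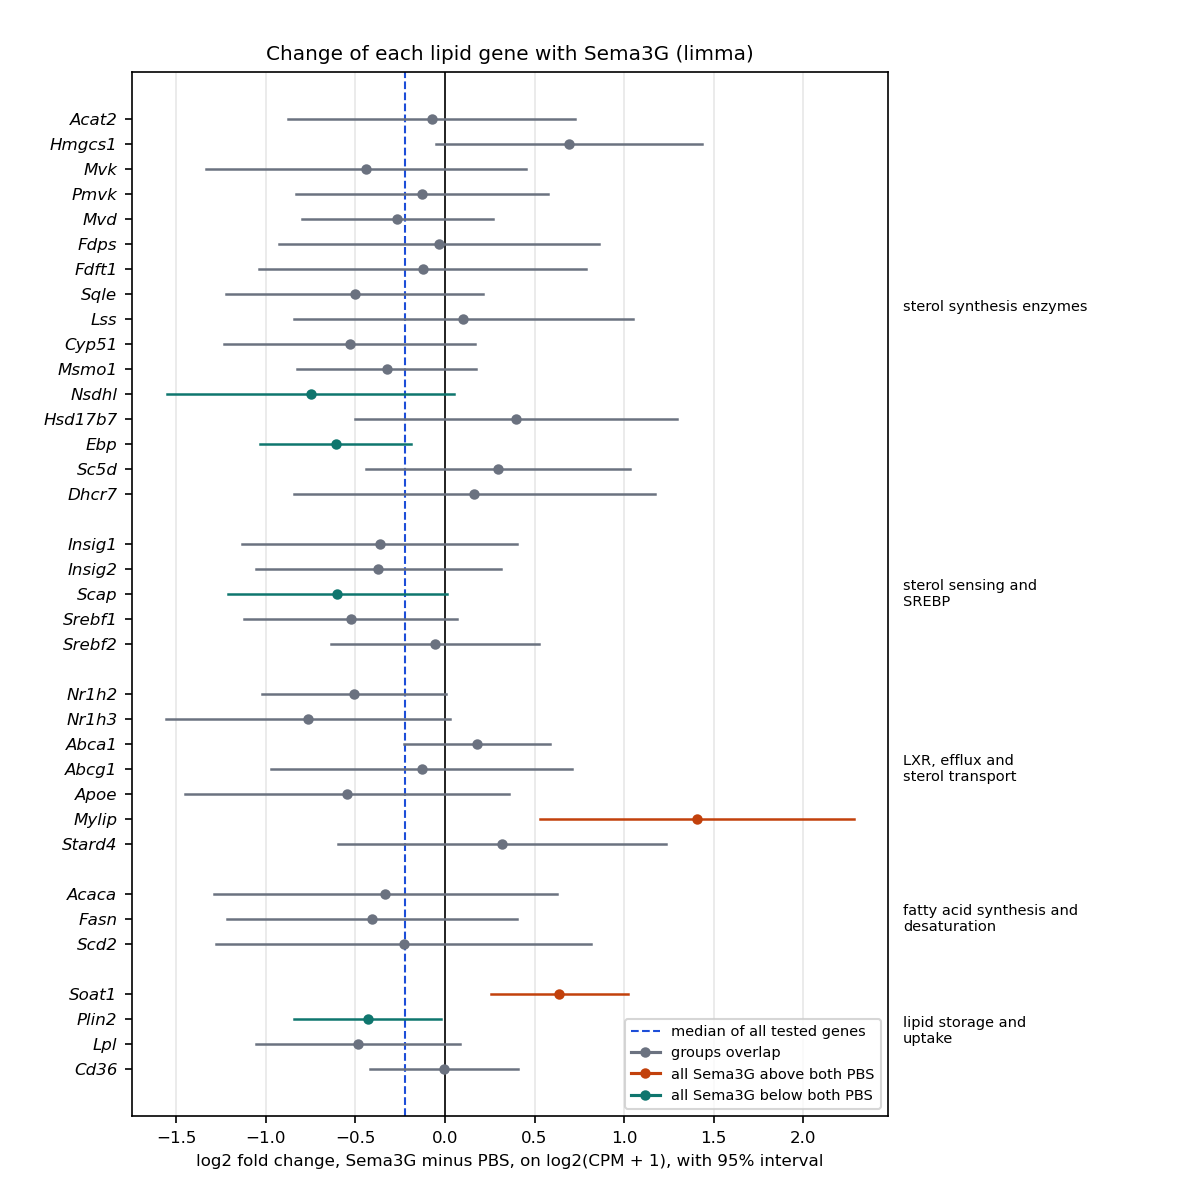
Log2 fold change of each tested member, Sema3G minus PBS, on the log2(CPM + 1) scale (horizontal axis), with the 95% interval from limma as a bar, in rows by role. The dashed line is the median of all tested genes (-0.22), and Mylip (1.41) and Soat1 (0.64) are the members whose 3 Sema3G libraries all lie above both PBS libraries.

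The libraries held between 1283029 and 1487137 UMIs on listed genes, and 3 UMIs in a library correspond to between 1.35 and 1.67 CPM. UMIs on listed genes were 75.6% and 77.6% of the library total with PBS and between 65.9% and 71.3% with Sema3G. The ribosomal RNA precursor Rn45s made up 1.01% and 3.19% of it under PBS and between 6.31% and 7.88% with Sema3G. An exact permutation test (two-sided) of either share returned p = 0.2, and no smaller value can be reached with 2 against 3 libraries. Sema3G replicates 2 and 3 were the most alike pair, at 1.77 chi-square units for each degree of freedom beside 6.57 to 29.6 in the other 9 pairs, and leaving out Sema3G replicate 1 changed several values, as given below. Of 10 macrophage markers none was at 0 in all 5 libraries, and their summed level was 10918 and 13661 CPM with PBS and between 9992 and 10618 CPM with Sema3G. The adipocyte markers Adipoq, Cfd and Plin1 had 0 UMIs in every library, and 8 of 10 lymphoid markers, 4 of 9 neutrophil markers, 4 of 8 dendritic cell markers and 3 of 6 mast cell and basophil markers were at 0 throughout. The summed neutrophil list was at 116 and 169 CPM with PBS and between 103 and 133 CPM with Sema3G, nearly all of it S100a8, which activated macrophages also make. The stromal and adipocyte list summed to between 12.8 and 28.6 CPM with PBS and between 11.7 and 21.7 CPM with Sema3G.

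The enzymes of sterol synthesis had log2 changes on both sides of 0. Of the 17 enzymes 16 were tested, 0 were called, 5 had a log2 fold change above 0 and 11 below. Their median was -0.13 beside -0.22 for all genes, and 9 lay above and 7 below the median of all genes. The median of these enzymes turned to 0.065 with TMM factors, 0.019 over the listed genes, 0.13 with Rn45s left out, 0.049 with edgeR and 0.053 with DESeq2. With 1 library left out it was between -0.37 (without Sema3G replicate 1, all genes -0.27) and -0.057 (without Sema3G replicate 3, all genes -0.18), and -0.35 without PBS replicate 2 (all genes -0.30). The exception to the test was Idi1, which isomerizes isopentenyl diphosphate, with 1 and 0 UMIs under PBS against 1, 0 and 0 under Sema3G. Both groups were under 3 counts, so a difference in Idi1 was not detectable at this depth.

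Ebp, the isomerase that shifts a double bond late in cholesterol synthesis, had the highest level of these enzymes, in CPM of 3′ ends not scaled by gene length. It had 204 and 199 UMIs under PBS against 157, 146 and 136 under Sema3G. Each of the 3 Sema3G libraries was below the PBS libraries in CPM, at 109 ± 3.92 CPM under PBS (SD, n = 2) against 72.0 ± 13.4 CPM under Sema3G (SD, n = 3). The log2 change was -0.61 (SE 0.20, limma adjusted p = 0.117), or -0.39 from the median of all genes. Without Sema3G replicate 1 it was -0.76, with an adjusted p of 0.0298 from limma. That fit keeps Sema3G replicates 2 and 3, the most alike pair of libraries, and it called 7.04% of all tested genes. Nsdhl, a sterol dehydrogenase of the same branch, had 23 and 16 UMIs under PBS against 15, 10 and 11 under Sema3G, with a log2 change of -0.75 (limma adjusted p = 0.269). Ebp and Nsdhl were the enzymes whose groups did not overlap, with Sema3G lower, a pattern found in 26.5% of all tested genes.

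Hmgcs1, the synthase that makes HMG-CoA and the member with the sterol response element shown above, had the largest log2 fold change above 0 of these enzymes, but 1 control library decided it. It had 77 and 22 UMIs under PBS against 70, 71 and 88 under Sema3G. PBS replicate 1, at 42.3 CPM, lay above all Sema3G libraries, which ranged from 32.0 to 40.6 CPM, and PBS replicate 2 stood apart at 11.8 CPM. The log2 change was 0.69 (95% interval -0.052 to 1.43, limma adjusted p = 0.271). It was 1.57 without PBS replicate 1 (limma adjusted p = 0.00995) and -0.19 without PBS replicate 2 (limma adjusted p = 0.708). No other tested sterol enzyme had so wide a gap between the PBS libraries, which was 3.59-fold for Hmgcs1.

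The remaining enzymes are given in the order of the pathway. Acat2, the thiolase that joins acetyl-CoA units, had a log2 change of -0.07. The kinases Mvk and Pmvk and the decarboxylase Mvd, which turn mevalonate into isopentenyl diphosphate, had values of -0.44, -0.13 and -0.27. Fdps and Fdft1, which build farnesyl diphosphate and squalene, were at -0.03 and -0.12. Sqle, the epoxidase of squalene and a control point of the pathway, had 27 and 24 UMIs under PBS against 25, 18 and 16 under Sema3G, with a log2 change of -0.50 (95% interval -1.22 to 0.21). Lss, which closes the rings to lanosterol, was at 0.10.

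Of the enzymes that turn lanosterol into cholesterol, Cyp51, the lanosterol demethylase, had 62 and 34 UMIs under PBS against 48, 31 and 28 under Sema3G, with a log2 change of -0.53, which was -0.098 without PBS replicate 1 and -0.97 without PBS replicate 2. Msmo1, a sterol methyl oxidase, had 137 and 105 UMIs under PBS against 127, 98 and 96 under Sema3G, with a log2 change of -0.33. In both genes PBS replicate 1 and Sema3G replicate 1 were the highest libraries of their groups, and the groups overlapped. Hsd17b7, a ketosteroid reductase, Sc5d, a desaturase, and Dhcr7, the reductase of the last step, had log2 fold changes of 0.40, 0.30 and 0.16. Adjusted p values from limma for the 16 tested enzymes ran from 0.117 to 0.972. The 95% interval lay within a 2-fold change in either direction for 5 of the 16 enzymes, and reached beyond that for the other 11.

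**Figure D2:**
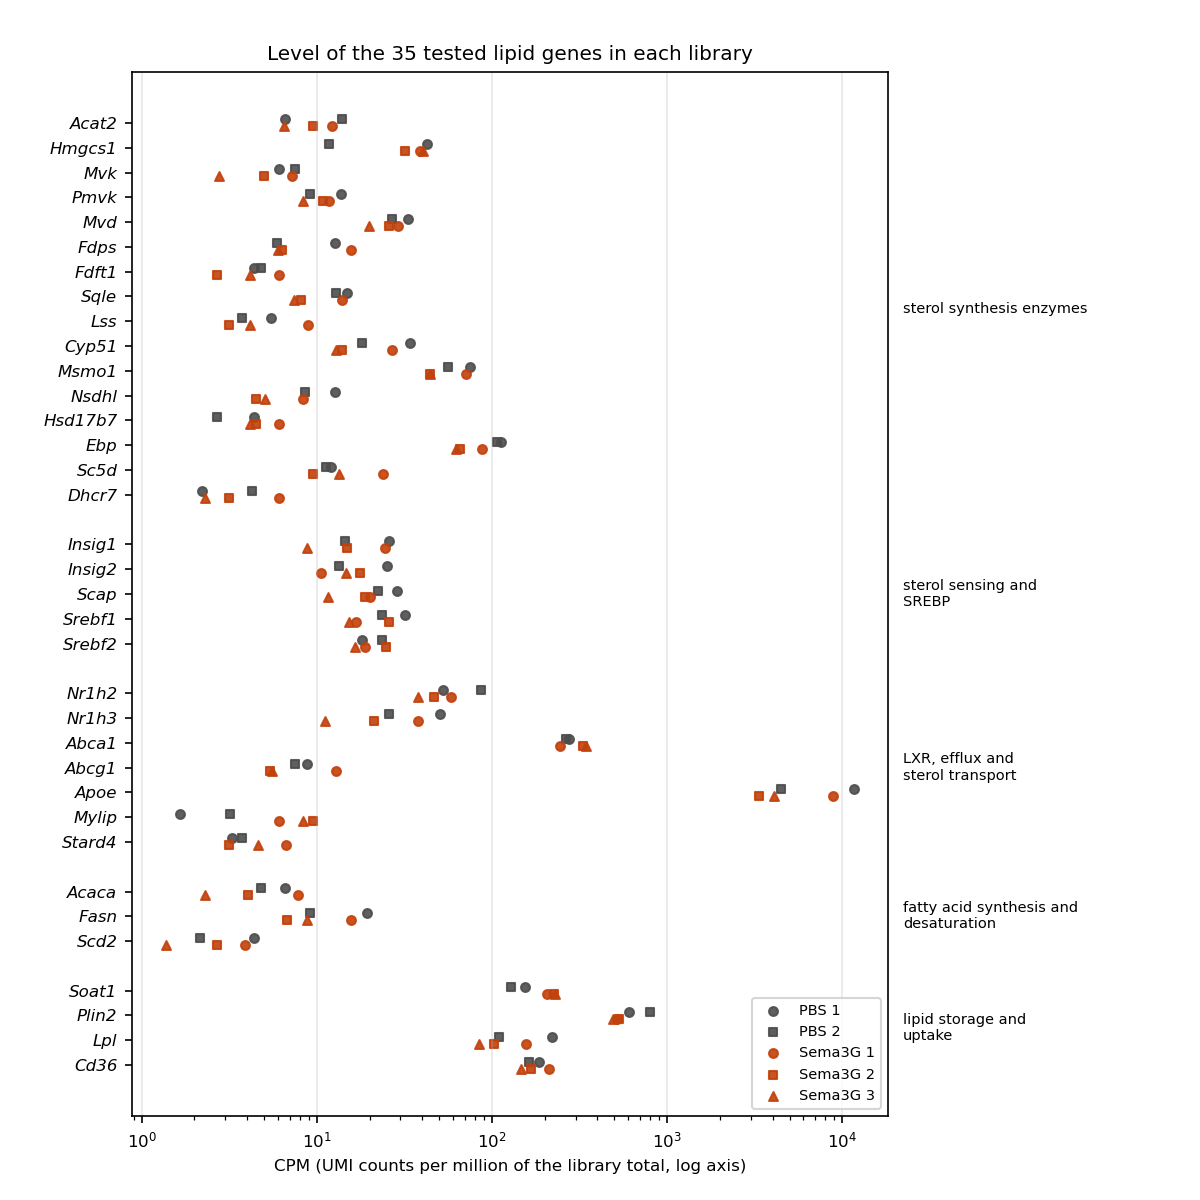
Level of each tested member in each library, as CPM on a log axis (horizontal), in rows by role. Grey marks are the 2 PBS libraries and orange marks the 3 Sema3G libraries, with the replicate number given by the shape. Apoe spans 3326 to 11613 CPM, from 4456 to 11613 CPM with PBS and from 3326 to 8807 CPM with Sema3G, and the groups overlap.

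The genes that sense sterol and control SREBP had log2 fold changes below 0 in 5 of 5 cases, beside 67.5% of all tested genes, and 0 of them were called. Relative to the median of all genes 1 lay above (Srebf2) and 4 below. Without PBS replicate 1 the log2 changes below 0 were 3 of 5, with Insig1 and Insig2 above, and without PBS replicate 2 they were 4 of 5, with Srebf2 above. Scap, the escort of SREBP, had 52 and 42 UMIs under PBS against 36, 42 and 25 under Sema3G. Scaled to CPM its Sema3G libraries did not overlap PBS and were lower, at 16.8 ± 4.63 CPM (SD, n = 3) against 25.5 ± 4.30 CPM (SD, n = 2), with a log2 change of -0.60 (limma adjusted p = 0.247). Srebf1, the gene of SREBP1 that favors fatty acid synthesis, had 58 and 44 UMIs under PBS against 30, 57 and 33 under Sema3G, with a log2 change of -0.53 (limma adjusted p = 0.293), and its groups overlapped. Srebf2, the gene of SREBP2 that favors cholesterol synthesis, had 33 and 44 UMIs under PBS against 34, 55 and 36 under Sema3G, with a log2 change of -0.06 (95% interval -0.64 to 0.52), which was above 0 under the other scalings, at 0.16 with TMM factors and 0.22 with Rn45s left out.

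Insig1, a brake on SREBP that is itself a target of it, had 47 and 27 UMIs under PBS against 44, 33 and 19 under Sema3G. Insig2, its relative, had 46 and 25 UMIs under PBS against 19, 39 and 32 under Sema3G. Both had a log2 fold change of -0.37, and for both the gap between the PBS libraries was wider than the difference between the groups. Without PBS replicate 1 they were 0.033 for Insig1 and 0.062 for Insig2, and without PBS replicate 2 they were -0.76 and -0.81. The list median of -0.37 lay -0.15 from that of all genes. It was -0.16 under TMM scaling, -0.24 when PBS replicate 1 was left out and -0.76 when PBS replicate 2 was.

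The LXR and efflux genes had log2 changes in both directions, with 3 above 0 and 4 below among 7 tested, a median of -0.13 and 0 calls, and 4 lay above and 3 below the median of all genes. The list median turned to 0.062 with TMM factors, 0.015 over the listed genes, 0.13 with Rn45s left out, 0.12 with edgeR and 0.14 with DESeq2, and it was between -0.49 and 0.14 with 1 library left out. Mylip, the LXR target that marks lipoprotein receptors for degradation, had the largest fold change of the 35 members from few molecules. It had 3 and 6 UMIs under PBS against 11, 21 and 18 under Sema3G, and all 3 Sema3G libraries lay above both PBS libraries. In CPM, this was 2.43 ± 1.11 CPM under PBS (SD, n = 2) against 7.96 ± 1.71 CPM under Sema3G (SD, n = 3). The log2 change was 1.41 (SE 0.42, 95% interval 0.53 to 2.28, limma adjusted p = 0.0906), and edgeR gave an adjusted p of 0.0736. It kept its direction under all 15 alternatives run, with values from 0.80 with a pseudocount of 5 to 1.93 with DESeq2. For part of these the direction was fixed in advance, because the groups do not overlap. Mylip was called by limma only with CPM taken over the listed genes with Rn45s left out (adjusted p = 0.0310).

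Abca1, the main transporter for cholesterol efflux to apolipoprotein A-I and an LXR target like Mylip, had 498 and 492 UMIs under PBS against 442, 730 and 750 under Sema3G. Sema3G replicate 1 lay below both PBS libraries and the other two Sema3G libraries above them, at 246, 329 and 346 CPM against 263 and 274 CPM. Its log2 change was 0.18 (95% interval -0.23 to 0.58, limma adjusted p = 0.612), or 0.40 above the median of all genes. Abcg1, the transporter that passes cholesterol to HDL and also an LXR target, had 16 and 14 UMIs under PBS against 23, 12 and 12 under Sema3G, with a log2 change of -0.13. These 3 LXR targets thus had values of 1.41, 0.18 and -0.13, and whether they differ from each other was not tested. They do not stand for all LXR targets among the members. Apoe (-0.55), Srebf1 (-0.53) and Lpl (-0.49) are also known as LXR targets, and their log2 changes were below 0.

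Apoe, the apolipoprotein that macrophages secrete and that carries cholesterol away, took most of the UMIs of the 37 genes. It had 21136 and 8324 UMIs under PBS against 15839, 7371 and 8855 under Sema3G. PBS replicate 1 and Sema3G replicate 1 stood above the other 3 libraries, at 11613 and 8807 CPM against 3326 to 4456 CPM, and the PBS libraries differed by 2.61-fold. The log2 change of -0.55 (SE 0.43, limma adjusted p = 0.465) therefore rested on the libraries taken, being 0.14 without PBS replicate 1 and -1.24 without PBS replicate 2. Nr1h3, the gene of LXRα, had 92 and 48 UMIs under PBS against 68, 47 and 24 under Sema3G, with a log2 change of -0.77 (limma adjusted p = 0.252), which was -0.29 without PBS replicate 1 and -1.24 without PBS replicate 2. Nr1h2, the gene of LXRβ, had 95 and 161 UMIs under PBS against 105, 103 and 82 under Sema3G, with a log2 change of -0.51, and here the same omissions gave -0.87 and -0.15. Stard4, a carrier that moves cholesterol between membranes, was at 0.32 from 6 to 12 UMIs a library.

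The fatty acid genes were low and spread widely between libraries. Fasn, the fatty acid synthase, had 35 and 17 UMIs under PBS against 28, 15 and 19 under Sema3G, with a log2 change of -0.41 (95% interval -1.22 to 0.40). Acaca, the acetyl-CoA carboxylase that makes its substrate, had 12 and 9 UMIs under PBS against 14, 9 and 5 under Sema3G, with a log2 change of -0.33. Of the desaturases, Scd2 had 8 and 4 UMIs under PBS against 7, 6 and 3 under Sema3G, with a log2 change of -0.23. Scd1 had 0 and 0 UMIs under PBS against 1, 1 and 0 under Sema3G, so it was not tested and no fold change is given. The 3 tested genes had a median of -0.33, and in each of them the gap between the PBS libraries was wider than the group difference. With 1 library left out the median of the 3 genes was 0.095 without PBS replicate 1, 0.0047 without Sema3G replicate 3, -0.62 without PBS replicate 2 and -0.70 without Sema3G replicate 1. Under other scalings and tests it was -0.17 with TMM factors, -0.21 over the listed genes, -0.11 with Rn45s left out, -0.11 with edgeR and -0.096 with DESeq2.

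Soat1, which esterifies cholesterol for storage in droplets, had the smallest p of the 35 tested members. It had 281 and 240 UMIs under PBS against 370, 501 and 494 under Sema3G. The Sema3G libraries lay close together at 206, 226 and 228 CPM, above both PBS libraries at 154 and 129 CPM. The mean was 141 ± 18.3 CPM under PBS (SD, n = 2) against 220 ± 12.3 CPM under Sema3G (SD, n = 3), a ratio of 1.55. The log2 change was 0.64 (SE 0.18, 95% interval 0.25 to 1.02, limma adjusted p = 0.0820), or 0.86 above the median of all genes.

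The call on Soat1 depended on the scaling and the test. The adjusted p was 0.0178 with edgeR, 0.00267 with DESeq2, 0.0104 with limma on TMM-scaled CPM, 0.0155 with limma on CPM over the listed genes and 0.00461 with Rn45s also left out of that total. With 1 library left out in limma the log2 fold change stayed between 0.51 and 0.77, and the adjusted p was 0.0354 without Sema3G replicate 1 and between 0.0958 and 0.364 in the other 4 fits. In edgeR with 1 library left out, chosen after seeing the data, the adjusted p was 0.00505 without Sema3G replicate 1 and between 0.0522 and 0.123 in the other 4 fits. The direction was the same in each of these fits. In limma with 1 library left out this was fixed in advance, because the groups do not overlap. The fit without Sema3G replicate 1 keeps Sema3G replicates 2 and 3, the most alike pair, and in limma it called 7.04% of all tested genes. In the GENCODE M21 annotation of GRCm38, Soat1 lies on the minus strand of chromosome 1, and none of its exons overlaps those of another annotated gene.

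The other 3 storage and uptake genes had log2 changes below 0. Plin2, the coat protein of lipid droplets, had 1102 and 1487 UMIs under PBS against 936, 1184 and 1061 under Sema3G. Its CPM did not overlap between the groups, at 515 ± 23.2 CPM (SD, n = 3) against 701 ± 135 CPM (SD, n = 2). Plin2 thus had a log2 change of -0.43 (limma adjusted p = 0.219), or -0.21 from the median of all genes. Lpl, the lipase that frees fatty acids from lipoproteins, had 400 and 204 UMIs under PBS against 281, 227 and 182 under Sema3G, with a log2 change of -0.49 with overlapping groups, which was 0.015 without PBS replicate 1. Cd36, a scavenger receptor for oxidized lipoproteins, had 339 and 303 UMIs under PBS against 381, 369 and 319 under Sema3G. Its log2 fold change was -0.01, and the 95% interval from -0.42 to 0.41 lay within a 2-fold change in either direction.

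Groups that do not overlap were no more frequent among the members than among all genes. All 3 Sema3G libraries lay above both PBS libraries for 2 of the 35 tested members, Mylip and Soat1, and for 11.9% of all tested genes. They lay below for 4 members, Nsdhl, Ebp, Scap and Plin2, and for 26.5% of all tested genes. The log2 fold changes of these 6 members kept their sign under all alternatives run. Groups that do not overlap fix this sign in advance with another pseudocount or filter, a library left out in limma or the replicate block. Only the other scalings, edgeR and DESeq2 could have turned it.

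Much of the variation of these genes lay between libraries of one group. For 22 of the 35 members the gap between the PBS libraries was wider than the difference between the groups, which is 62.9% beside 50.2% of all tested genes. In 21 members (60% beside 33.8% of all tested genes), PBS replicate 1 was above PBS replicate 2 and Sema3G replicate 1 above the other Sema3G libraries. These were 11 of 16 sterol synthesis enzymes, 2 of 5 SREBP pathway genes, 3 of 7 LXR and efflux genes, 3 of 3 fatty acid genes and 2 of 4 storage and uptake genes. The opposite order was seen in 1 member, Mylip, and in 13.8% of all tested genes. Members share libraries and depth, so these counts describe the libraries and carry no test.

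**Figure D3:**
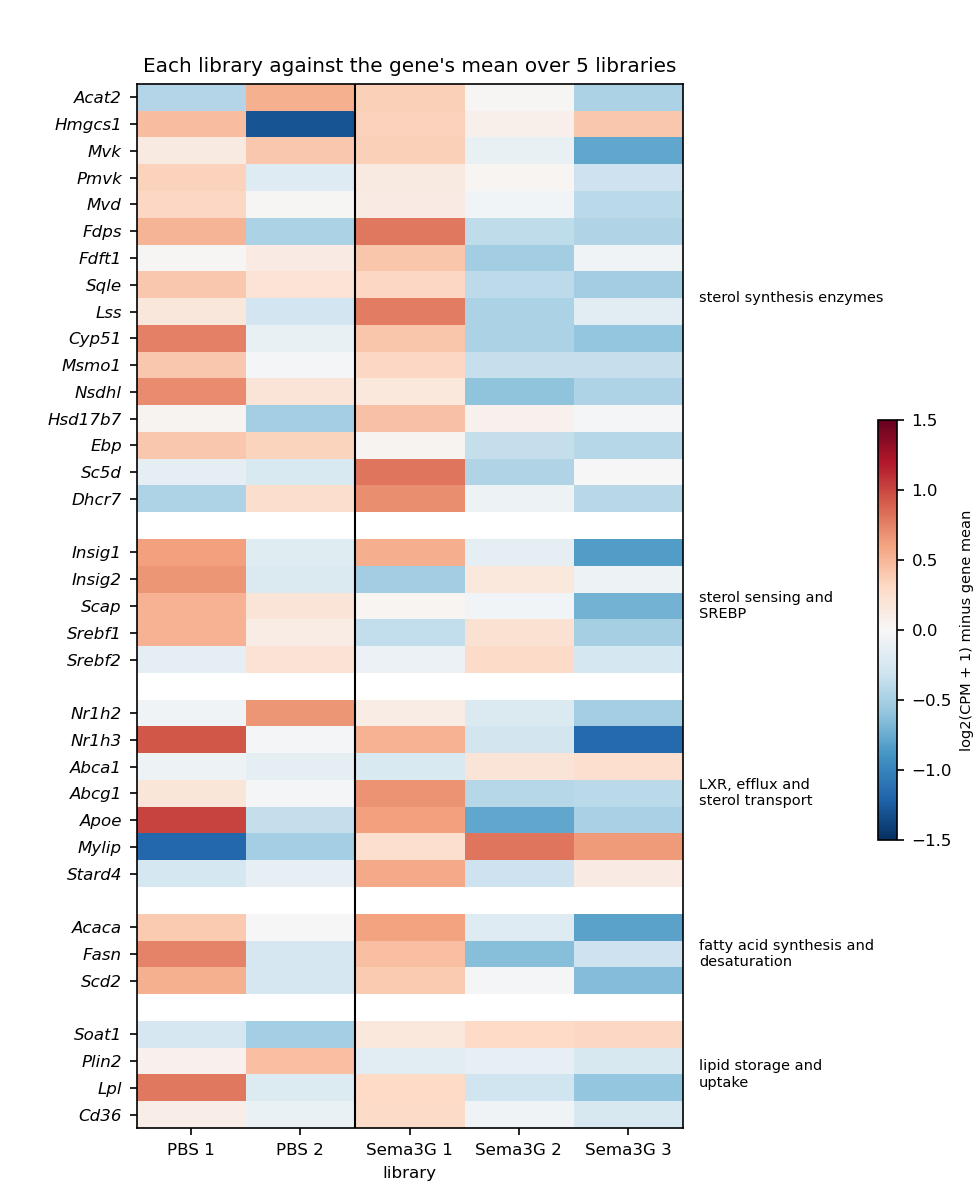
Level of each tested member in each library as log2(CPM + 1) minus the mean of that gene over the 5 libraries (red above, blue below), in rows by role, with a line between the PBS and Sema3G columns. PBS 1 and Sema3G 1 are red for most sterol synthesis enzymes, for Apoe and for the fatty acid genes, while Soat1 and Mylip change at the line between the groups.

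Of 71 further genes of the same pathways 61 were tested and 0 were called by limma, beside 1.8% of all tested genes. An unadjusted p below 0.05 was seen for 17 of them, beside 21.1% of all tested genes, and edgeR and DESeq2 called 1 of them each, beside 3.01% and 3.92%. That gene was Nceh1, named here after its values were seen, a hydrolase of cholesteryl esters and so the opposite step to Soat1. It had 196 and 137 UMIs under PBS against 250, 258 and 316 under Sema3G, with all Sema3G libraries above both PBS libraries in CPM. The log2 change of Nceh1 was 0.58 (limma adjusted p = 0.138, 0.0395 from edgeR and 0.0256 from DESeq2), and it was 0.30 without PBS replicate 2. The gene was also called by limma on TMM-scaled CPM (0.80, adjusted p = 0.0262), over the listed genes (0.75, adjusted p = 0.0466) and with Rn45s left out (0.87, adjusted p = 0.0133). With Rn45s left out limma called Abca9 too (1.17, adjusted p = 0.0325). The largest changes of each further list were those of Mbtps2, a protease that releases SREBP (log2 change -0.71), Abca9, a transporter of the ABCA family (0.87), Acsl3, an acyl-CoA synthetase of lipid droplets (0.75), and Agpat2, an enzyme of triglyceride synthesis (-0.92, limma adjusted p = 0.0671). Agpat2 was called without PBS replicate 2 (limma adjusted p = 0.0453), as it was without Sema3G replicate 1 (limma adjusted p = 0.0221). The limma fit without Sema3G replicate 1 called 7.04% of all tested genes. The median over the 61 genes was -0.32, beside -0.22 for all tested genes, with 12 above 0 and 49 below. Relative to the median of all genes 22 lay above and 39 below. All Sema3G libraries lay above both PBS libraries for 6 of the 61 (11.9% of all tested genes) and below them for 21 (26.5% of all tested genes).

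**Figure D4:**
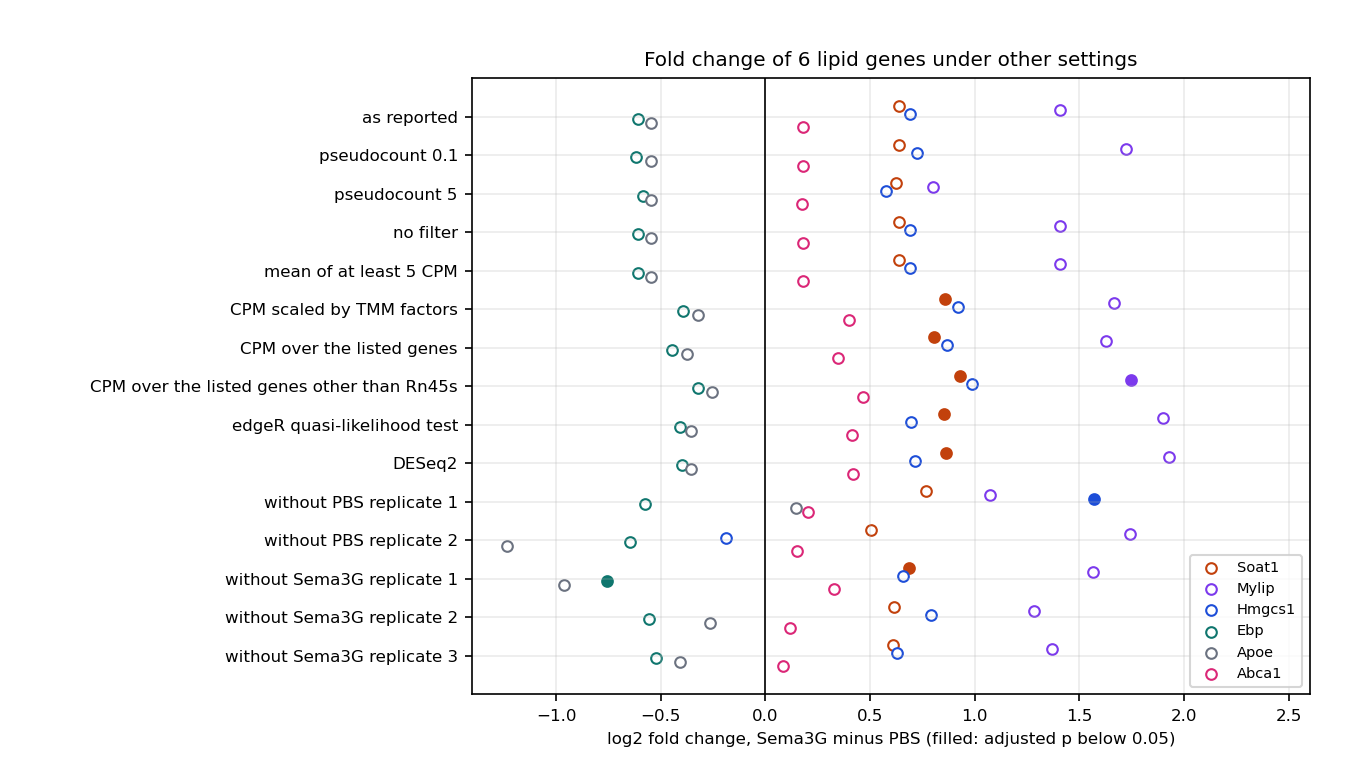
Log2 fold change of 6 members, Sema3G minus PBS (horizontal axis), as reported and under other settings (rows), with filled marks at an adjusted p below 0.05. Soat1 stays between 0.51 and 0.93 and is filled under 6 of the 14 other settings plotted (the replicate block is not), while Hmgcs1 and Apoe change sign when 1 PBS library is left out.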

How the data were processed

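The 5 samples of LPS-activated BMMs were 2 with PBS and 3 with Sema3G. The authors used 3′ end libraries carrying UMIs, mm10 as the genome, Strand NGS for the counts and edgeR (3.12 in the submitters' processing notes) for scaling. The deposited values are CPM, in which 100% of values lay within 0.01 of a whole UMI (library totals 1798469 to 2215855). The deposited p-value, q-value and ranking score columns hold the authors' own comparison and were not used. Because of this unit the main test was limma (3.58.1, in R 4.3.3), with its trend option, and fold changes on log2(CPM + 1) understate those of low genes. On recovered counts edgeR (4.0.16) called 304 genes (3.01%), and DESeq2 was 1.42.0. Other pseudocounts, filters, scalings, a replicate block and each library left out were also run. Values in every library are given for members called, with groups apart, of the 2 largest changes or highest level per role, and of known role. The members and lists were chosen with earlier results of these data known. Promoters are RefSeq's (GRCm38.p6), matched by symbol. Exons of Fdft1, Cyp51, Lss and Srebf1 overlap Ctsb, Akap9, 4930483K19Rik and Rai1 on the other strand, those of Srebf1 and Scd2 overlap Mir6922 and Mir5114 on the same strand, and whether counting used strand was not stated. Annotated genes without a row also overlap members. On the same strand these are Gm43738 with Fdps (1124 bp) and Gm13783 with Nr1h3 (34 bp). On the other strand they overlap Hmgcs1, Idi1 and Scap. Limits from 3 UMIs cover counting error only.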

Additional observations from a re-analysis of the deposited data

How the results depend on the processing

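The 16 members Abca1, Cyp51, Ebp, Hsd17b7, Msmo1, Mvk, Mylip, Nr1h2, Nr1h3, Nsdhl, Plin2, Scap, Soat1, Sqle, Srebf1 and Stard4 kept their direction under all alternatives that gave them a value. For those whose groups do not overlap, this was fixed in advance in part of the alternatives. Of 520 member values under other settings, 428 kept direction and side of the adjusted p limit, 9 kept direction with no adjusted p from DESeq2, 10 passed the limit and 73 changed sign, and the cause was not tested. No member was called in the fits with another pseudocount or filter, beside 0.844% to 2.18% of the genes tested in them. The number of members called was 1 with TMM-scaled CPM, CPM over the listed genes, edgeR, DESeq2 and the replicate block (Soat1 each time). These settings called 3.47%, 3.08%, 3.01%, 3.92% (of genes with an adjusted p) and 5.54% of all tested genes, in that order. The number was 2 with CPM taken over the listed genes with Rn45s left out (Soat1 and Mylip), beside 4.94% of all tested genes. Leaving out each library gave 0 to 2 members in limma and 0 to 3 in edgeR (chosen after seeing the data). Without PBS replicate 1 the member called was Hmgcs1 in both, beside 0.981% of all tested genes in limma and 0.248% in edgeR. Without Sema3G replicate 1 they were Soat1 and Ebp in limma, beside 7.04% of all tested genes, and Soat1, Mylip and Abca1 in edgeR, beside 5.97%. In the other fits no member was called, beside 0.268% to 2.15% of all tested genes in limma and 0.664% to 2.98% in edgeR. A lone PBS library takes its spread from the Sema3G libraries.

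Over all genes, 160 were called higher and 22 lower. These became 347 and 3 with TMM-scaled CPM, 307 and 4 with CPM over the listed genes, 496 and 2 with Rn45s also left out, 301 and 3 with edgeR, 249 and 1 with DESeq2 and 104 and 4 with no filter, and 5 were lower with a pseudocount of 0.1. With 1 library left out, between 27 (without Sema3G replicate 2) and 270 genes (without Sema3G replicate 1) were higher and between 0 and 440 lower, with 32 higher when Sema3G replicate 3 was left out and 88 when PBS replicate 1 was. The median log2 fold change of all genes, -0.22, was -0.023 with TMM factors, -0.071 with CPM over the listed genes, 0.042 with Rn45s also left out, -0.038 with edgeR and -0.031 with DESeq2. That of the SREBP pathway genes was -0.16 with TMM factors, -0.099 with Rn45s left out, -0.19 with edgeR and -0.18 with DESeq2, and between -0.76 and -0.24 with 1 library left out. That of the storage and uptake genes was 0.0017 with TMM factors and 0.071 with Rn45s left out, and between -0.30 and 0.054 with 1 library left out.

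Log2 fold changes that changed sign were as follows. With TMM factors they were Acat2 0.13, Pmvk 0.078, Fdps 0.17, Fdft1 0.053, Srebf2 0.16, Abcg1 0.062 and Cd36 0.21. With CPM over the listed genes they were Acat2 0.081, Pmvk 0.029, Fdps 0.12, Fdft1 0.0098, Srebf2 0.11, Abcg1 0.015 and Cd36 0.16. With Rn45s also left out they were Acat2 0.19, Pmvk 0.14, Mvd 0.014, Fdps 0.23, Fdft1 0.11, Srebf2 0.22, Abcg1 0.13 and Cd36 0.28. With DESeq2 they were Acat2 0.042, Pmvk 0.065, Fdps 0.20, Fdft1 0.094, Srebf2 0.16, Abcg1 0.14 and Cd36 0.21, and with edgeR Acat2 0.042, Pmvk 0.056, Fdps 0.18, Fdft1 0.083, Srebf2 0.15, Abcg1 0.12 and Cd36 0.21. With 1 library left out the ranges that cross 0 were -0.40 to 0.15 for Pmvk, -0.53 to 0.46 for Fdps, -0.20 to 0.53 for Dhcr7, -0.76 to 0.033 for Insig1, -0.81 to 0.062 for Insig2, -1.24 to 0.14 for Apoe, -0.91 to 0.095 for Fasn, -0.62 to 0.16 for Scd2, -0.99 to 0.015 for Lpl, -0.15 to 0.11 for Cd36, -0.56 to 0.41 for Acat2, -0.19 to 1.57 for Hmgcs1, -0.26 to 0.36 for Lss, -0.24 to 0.12 for Srebf2, -0.045 to 0.58 for Sc5d, -0.36 to 0.11 for Fdft1, -0.49 to 0.057 for Abcg1 and -0.70 to 0.0047 for Acaca. Ranges that kept their sign but held a value over 1.5 times away from the reported one were -0.71 to -0.14 for Mvk, -0.41 to -0.12 for Mvd, -0.76 to -0.35 for Sqle, -0.97 to -0.098 for Cyp51, -0.55 to -0.12 for Msmo1, -1.01 to -0.50 for Nsdhl, 0.12 to 0.67 for Hsd17b7, -0.77 to -0.36 for Scap, -0.75 to -0.32 for Srebf1, -0.87 to -0.15 for Nr1h2, -1.24 to -0.29 for Nr1h3, 0.084 to 0.33 for Abca1, 0.097 to 0.54 for Stard4 and -0.63 to -0.24 for Plin2. Ranges nearer to the reported value were 1.07 to 1.74 for Mylip, 0.51 to 0.77 for Soat1 and -0.76 to -0.52 for Ebp.

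The labels number replicates 1 and 2 in both groups without saying that a number marks a shared culture, and deviations from the group means correlated at 0.17 and 0.11 across genes for the same numbers, so the numbers were not taken as pairs. With the replicate block, which uses 4 libraries and leaves 1 residual degree of freedom, 278 genes were higher and 281 lower, limma called Soat1 (0.61, adjusted p = 0.0143, against 0.326 in the fit of these 4 libraries without the block) and Agpat2 (-0.80, adjusted p = 0.0149), the median of the LXR and efflux genes was 0.045, and Acat2 was 0.15, Pmvk 0.0055, Fdps 0.18, Srebf2 0.065, Abcg1 0.045, Acaca 0.0047, Scd2 0.049 and Cd36 0.11.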
